A study of Mus musculus with 6 samples.

Results

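The mitochondrial ribosome, or mitoribosome, is the ribosome that mitochondria keep for themselves. It translates the few messenger RNAs encoded by mitochondrial DNA, all of which specify subunits of the respiratory chain and of ATP synthase. Its RNAs are transcribed from mitochondrial DNA, whereas its proteins are encoded in the nucleus, made by cytosolic ribosomes and imported. Genes for the large subunit carry symbols beginning with Mrpl and genes for the small subunit symbols beginning with Mrps.

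Protein-coding genes whose symbol is Mrpl or Mrps followed by a digit made up 77 of the 22081 genes in the table, with 48 Mrpl and 29 Mrps genes. The rule uses the symbol and the biotype alone. Structural work places the products of Mrps30 and Mrps18a in the large subunit and shows that Mrps36 encodes a subunit of the 2-oxoglutarate dehydrogenase complex, so that 50 members belong to the large and 26 to the small subunit by structure. In the common naming of ribosomal proteins, 46 members carry the name of a bacterial protein and 30 a name reserved for mitochondrial ribosomes. Mrps18a and Mrps18b are among the 30, although both are paralogues of bacterial S18.

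RNA-seq was performed on freshly isolated muscle stem cells (MuSCs), the Pax7-expressing stem cells of skeletal muscle, from C57BL/6 mice of 8 to 20 weeks and of both sexes. The 3 Taf4asKO libraries came from Pax7CreERT/Taf4a fl/fl mice, in which tamoxifen activates a Cre recombinase expressed from Pax7 and exons 11 and 12 of Taf4a are removed. Taf4a is the gene listed as Taf4, a subunit of the general transcription factor TFIID. The 3 control libraries, labelled WT, came from littermates, which the study's animal records list as carrying the floxed Taf4a alleles as well, with or without the Cre. Cells were isolated 4 to 6 weeks after tamoxifen, going by the study's figure legends for these data. Whether these controls carried Cre or were themselves given tamoxifen is not given in the sources used here. Cells positive for SCA1, CD45 or CD31, which mark fibro-adipogenic, haematopoietic and endothelial cells, were depleted with antibody-bound beads, and MuSCs were then sorted by Integrin-α7 or by a Pax7-zsGreen reporter. The study reports that sorted cells, when reanalysed, were enriched but not fully pure. The labels do not say whether libraries of a group were separate animals, so that p-values measure the spread between these libraries.

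Values are normalized counts, that is, read counts per gene divided by a size factor for each library, and they summed to between 12338676 and 14551732 per library. Taf4 itself stood at 613, 534 and 478 in the controls and 631, 565 and 574 in the Taf4asKO libraries, so that the log2 difference was 0.13 ± 0.12 (SE, n = 3 per group, adjusted p = 0.524 by limma). These values cover the whole gene, and the deleted exons were not analysed here, so that Taf4asKO below means the libraries labelled so. For MuSCs of such mice the study reports deletion of the exons by genomic PCR. It also reports a near complete loss of Taf4a transcripts by RT-qPCR and of the protein by western blot. Of 9 MuSC markers, 4 fell (Myf5, Megf10, Itga7 and Cdh15) and 2 rose (Sdc4 and Vcam1). Of 4 Schwann cell markers 3 rose, their sum going from 842 to 2255 in controls to 2757 to 3300 in Taf4asKO, and 2 of 4 mural cell markers rose (3 with the libraries blocked by replicate number). Of 7 fibro-adipogenic markers Col3a1 and Dpt fell, while the other 5 had positive estimates, the list median was 0.77 on the log2 scale, and 4 were called higher with the block. Of 5 endothelial markers, all with positive estimates, 0 were called, or 2 higher with the block. Of 3 haematopoietic and 7 myofiber markers 0 were called with or without it. Over all 18562 tested genes, 1246 were called lower and 1101 higher, or 1667 and 1688 with the block. Control replicate 1 was the lowest library for 4 of 4 Schwann cell, 5 of 5 endothelial and 7 of 7 myofiber markers. It was also the lowest for 5 of 7 fibro-adipogenic and 3 of 4 mural cell markers, but the highest for all 3 haematopoietic ones. Over all tested genes it was the lowest for 4206 of 18562. Mitoribosomal genes are used by all of these cell types, and the part of cell composition in the values below was not tested.

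Of the 77 mitoribosomal protein genes, 5 passed the test. Mrps28, Mrpl23 and Mrpl52 were lower and Mrpl49 and Mrps25 were higher in Taf4asKO, and the other 72 members were not called, which does not show that their levels were equal. A gene was called when limma gave a Benjamini-Hochberg adjusted p under 0.05 and its fold was at least 1.3, in a fit over the 18562 genes whose mean reached 5. All 77 members reached that mean. The called share of members, 6.49%, compares with 12.6% of all tested genes, where 6.71% were called lower and 5.93% higher.

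The direction was mixed in both subunits. Of the Mrpl genes, 20 had a negative and 28 a positive log2 fold change, with a median of 0.07. Of the Mrps genes, 13 were negative and 16 positive, with a median of 0.08, beside a median of 0.00 over all tested genes. Members named after a bacterial protein had a median of 0.05 with 2 called lower and 0 higher, and members with a mitochondrial name a median of 0.08 with 1 called lower and 2 higher. The 95% interval lay within a 2-fold change in either direction for 71 members, and for 10553 of all tested genes. The median SE was 0.18 for members and 0.22 for all tested genes. At an unadjusted p under 0.05 there were 12 members, beside 28.8% of all tested genes.

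**Figure D1:**
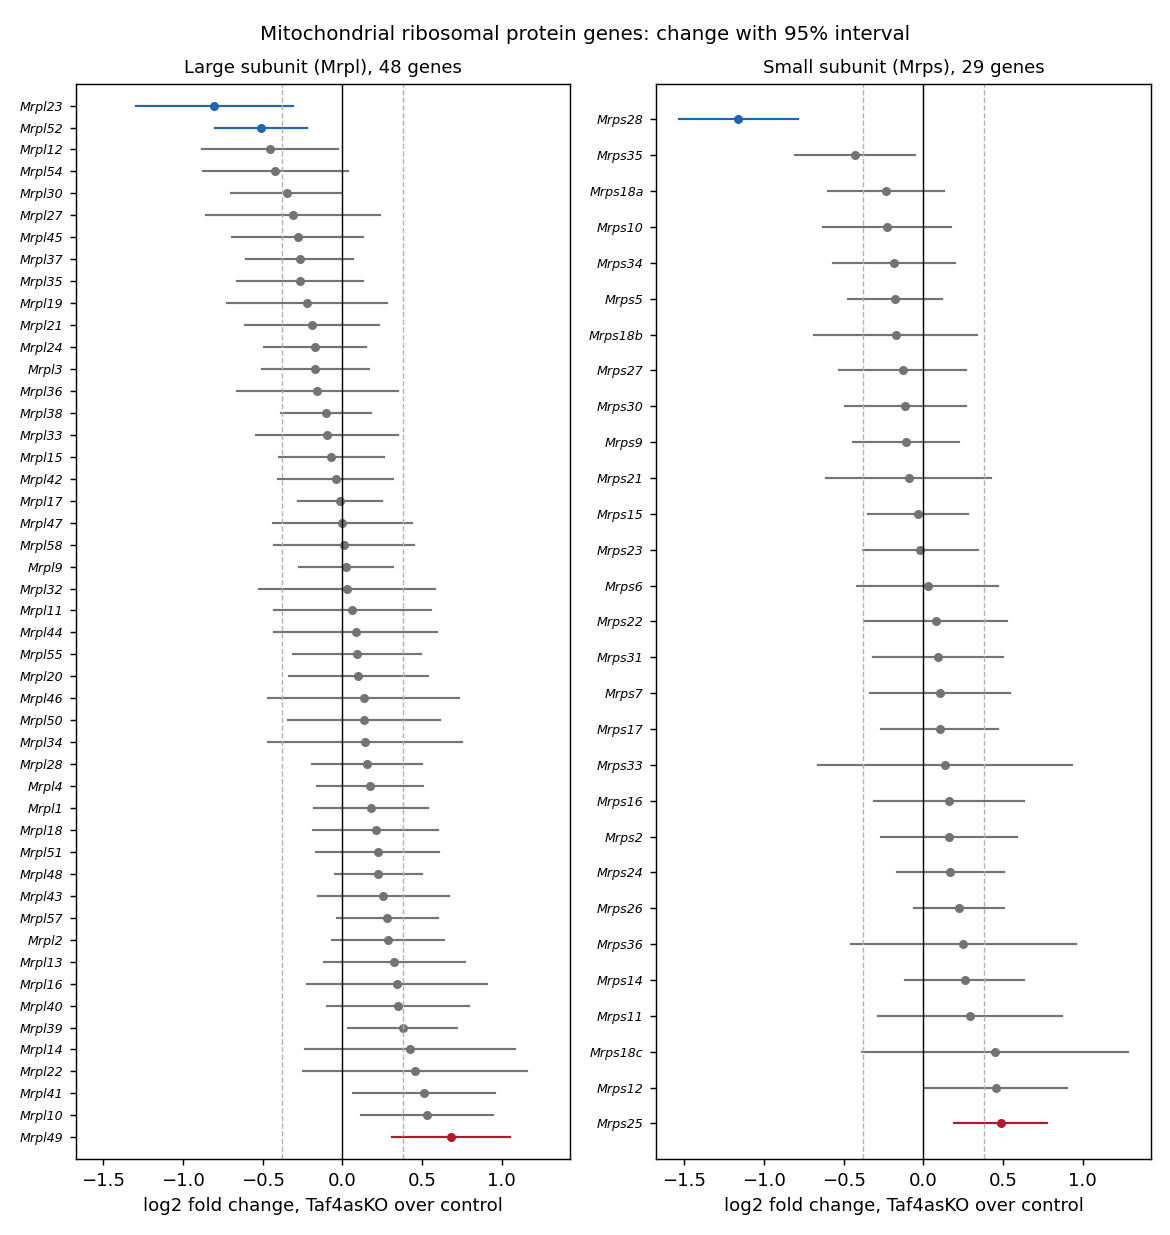
Log2 fold change of each of the 48 Mrpl (left) and 29 Mrps genes (right), Taf4asKO over control, with its 95% interval from limma; blue points were called lower, red points called higher, grey points not called, and dashed lines mark a fold of 1.3. Mrps28 lies at the lower end at -1.16 and Mrpl49 at the upper end at 0.68, with most intervals crossing 0.

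The 2 groups of libraries did not overlap for 14 members, 5 lower and 9 higher, which is 18.2% of members beside 33.0% of all tested genes. The 5 lower were Mrps28, Mrpl23, Mrpl52, Mrpl12 and Mrps35. The 9 higher were Mrpl49, Mrpl10, Mrps25, Mrps12, Mrpl39, Mrpl2, Mrpl57, Mrpl48 and Mrps26. Both subunits were present on each side.

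Mrps28 changed most. Its product is the mitochondrial counterpart of bacterial ribosomal protein S1 and sits in the small subunit. Mrps28 (ENSMUSG00000040269, mm10 chr3:8802146-8923918, minus strand) measured 146, 176 and 150 in controls and 74, 69 and 66 in Taf4asKO. The lowest control value was thus well above the highest Taf4asKO value, and the log2 fold change was -1.16 ± 0.17 (SE, n = 3 per group, adjusted p = 0.0023 by limma). The gene was called under all 19 alternative settings. Of the 4 tested genes within 60000 bases 0 were called. Tpd52, on the same strand 1675 bases away, was at 0.12 ± 0.14 on the log2 scale. Gm15466 and Gm15467, which overlap Mrps28 on the same and the other strand, were at -1.03 ± 0.49 and 0.11 ± 0.75, and Gm37647 was at 1.59 ± 0.48 (limma adjusted p = 0.0531), from a mean of 5.33 in controls to 16.3 in Taf4asKO.

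Mrpl23 encodes a protein at the rim of the tunnel through which the nascent chain leaves the large subunit. Mrpl23 (ENSMUSG00000037772, mm10 chr7:142533012-142540747, plus strand) measured 82, 63 and 69 in controls and 46, 38 and 37 in Taf4asKO. The groups did not overlap, with a change of -0.81 ± 0.22 on the log2 scale (SE, n = 3 per group, limma adjusted p = 0.0395). It was called under 10 of 19 alternative settings. The call was lost on leaving out control replicate 1 or 3 or any one Taf4asKO library, with adjusted p from 0.068 to 0.15, after adjustment for GC content and exon length (adjusted p = 0.061) and with total-count scaling (adjusted p = 0.054). The processed pseudogene Mrpl23-ps1 held between 0 and 5 counts per library and was not tested.

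Mrpl23 lies beside the imprinted H19 region. Nctc1, a long non-coding RNA gene on the other strand that lies 3862 bases from Mrpl23, fell from 213, 177 and 266 to 17, 22 and 21 (-3.37 ± 0.22 on the log2 scale, adjusted p = 5.77e-05 by limma). H19, a long non-coding RNA expressed from the maternal chromosome, rose from 805, 771 and 570 to 2974, 1835 and 2393 (1.73 ± 0.18 on the log2 scale). The long non-coding RNA Gm33148 fell by 2.57 ± 0.48, from a mean of 18.7 to 2.33 counts. Of the other tested genes within 60000 bases, Tnnt3, the fast skeletal troponin T, measured 0.46 ± 0.27, Lsp1 -0.09 ± 0.12 and Prr33 0.03 ± 0.25, none of them called. These neighbours were looked at because Mrpl23 was called.

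Mrpl52 encodes a large subunit protein without a bacterial counterpart. Mrpl52 (ENSMUSG00000010406, mm10 chr14:54426909-54429756, plus strand) measured 451, 574 and 454 in controls and 327, 341 and 363 in Taf4asKO. The groups did not overlap, with a change of -0.51 ± 0.13 on the log2 scale (SE, n = 3 per group, limma adjusted p = 0.0279). It was not called after adjustment for GC content and exon length, at -0.37 (adjusted p = 0.171), nor without any one of the Taf4asKO libraries, with adjusted p from 0.081 to 0.111. Of the 5 tested genes within 60000 bases 1 was called, Slc7a7, an amino acid transporter subunit on the other strand 9210 bases away, which fell by 0.90 ± 0.26 on the log2 scale (limma adjusted p = 0.0475). The nearest, Mmp14, a membrane metalloproteinase on the same strand 1856 bases away, was at -0.08 ± 0.13. Lrp10 was at -0.01 ± 0.11, Oxa1l, an insertase of the mitochondrial inner membrane, at -0.37 ± 0.18 and Rem2 at -0.80 ± 0.51.

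Mrpl49 was the member with the highest positive change. Its product is a large subunit protein without a bacterial counterpart. Mrpl49 (ENSMUSG00000007338, mm10 chr19:6053630-6057751, minus strand) measured 124, 180 and 133 in controls and 239, 220 and 235 in Taf4asKO. The groups did not overlap, with a change of 0.68 ± 0.17 on the log2 scale (SE, n = 3 per group, limma adjusted p = 0.0252). Leaving out control replicate 1 or 3 or any one Taf4asKO library ended the call, with adjusted p between 0.063 and 0.104.

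Mrps25, a small subunit gene, was the other member called higher. Mrps25 (ENSMUSG00000014551, mm10 chr6:92169525-92184033, minus strand) measured 267, 218 and 216 in controls and 315, 326 and 338 in Taf4asKO. The groups did not overlap, with a change of 0.49 ± 0.13 on the log2 scale (SE, n = 3 per group, limma adjusted p = 0.0367). Of its exon bases, 69.8% overlap Nr2c2 on the opposite strand, which measured -0.08 ± 0.10, and since reads over several genes were left out and the strand setting of the counting is not stated, this value is uncertain. The call held in 9 of 19 settings and was lost, among others, without control replicate 3 (adjusted p = 0.088) or without any one Taf4asKO library (adjusted p from 0.088 to 0.15).

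**Figure D2:**
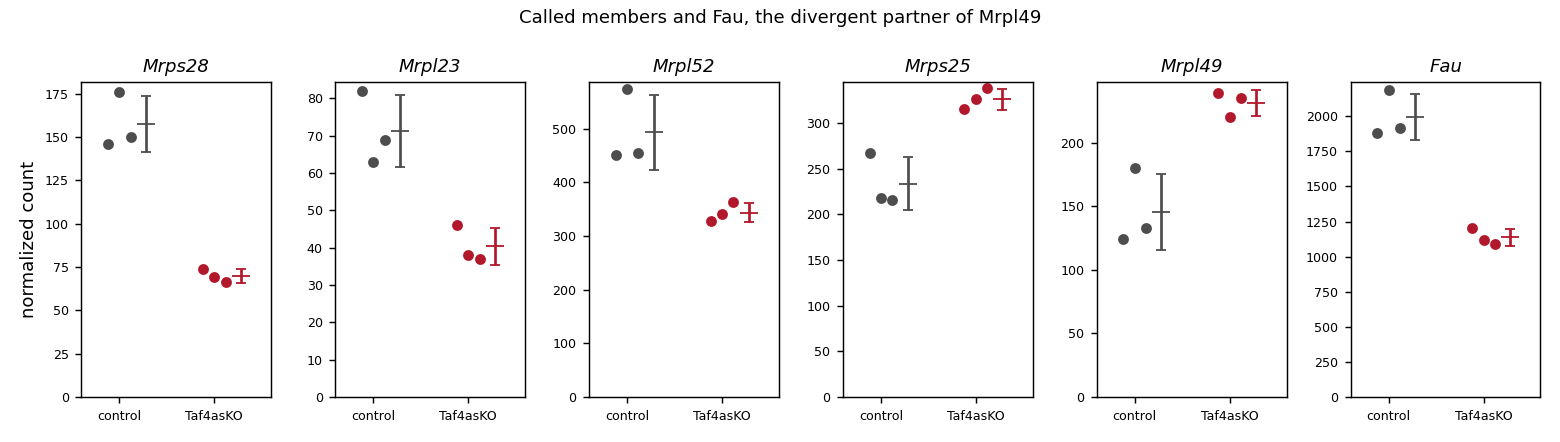
Normalized counts of the 5 called members and of Fau, the gene that starts head to head with Mrpl49; each point is 1 library (3 control, 3 Taf4asKO), the bars give mean ± SD, and each axis starts at 0. Points of the groups do not overlap in any panel, and Fau is lower where Mrpl49 is higher.

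Members with known roles elsewhere in the ribosome were not called. The L7/L12 stalk, where translation factors dock, is built on Mrpl10 and Mrpl12, with Mrpl11 at its base. Mrpl10 measured 134, 215 and 146 in controls and 232, 217 and 254 in Taf4asKO (0.53 ± 0.19 on the log2 scale, limma adjusted p = 0.0907). Mrpl12 measured 217, 318 and 188 and then 181, 174 and 160 (-0.45 ± 0.19, adjusted p = 0.151), and Mrpl11 was at 0.06 ± 0.22. The stalk genes thus had estimates of opposite sign, none past the test.

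At the exit tunnel, Mrpl23 alone of 6 members was called. Of the others, Mrpl47 and Mrpl17 were at 0.00 and -0.01, Mrpl24 was at -0.17 ± 0.14 and Mrpl22 at 0.45 ± 0.32. Mrpl45, which anchors the mitoribosome to the inner membrane, was at -0.28 ± 0.18 on the log2 scale. Of the 6 members assigned here to the central protuberance, which may not be all of its proteins, 2 had negative and 4 positive estimates and 0 were called. Mrps12, a protein of the decoding centre, measured 72, 90 and 61 in controls and 107, 91 and 106 in Taf4asKO, groups that differ by 1 count at their closest (0.46 ± 0.20, limma adjusted p = 0.167). Mrpl41 was at 0.51 ± 0.20 (adjusted p = 0.125).

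The 3 paralogues of bacterial S18 lay at -0.23 ± 0.16 for Mrps18a, -0.17 ± 0.23 for Mrps18b and 0.45 ± 0.37 for Mrps18c, none called. Mrpl44, which has a ribonuclease III-like fold, was at 0.08 ± 0.23 and Mrps22 at 0.08 ± 0.20. Mrpl58, which releases peptides from stalled ribosomes, was at 0.01 ± 0.20 and Mrps30 at -0.11 ± 0.17. Mrps36, Mrps18c and Mrpl14 had the lowest means, and their 95% intervals reached 0.96, 1.29 and 1.08 on the log2 scale.

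The controls differed among themselves in the level of the members. Control replicate 2 was the highest of the 6 libraries for 47 of 77 members, 26 Mrpl and 21 Mrps, and the lowest for 1. It was the highest for 4474 of the 18562 tested genes, for 51 of 91 nuclear genes named for the respiratory chain and for 78 of 94 genes on the cytosolic ribosomal protein list. The members' values summed to 11286, 14288 and 11003 in controls and to 11986, 12194 and 12283 in Taf4asKO. The controls thus lay on both sides of the Taf4asKO libraries. Myofiber markers moved with it, summing to 1234, 3842 and 1840 in controls and to between 2193 and 2768 in Taf4asKO, and so did mitochondrial rRNAs. Their part in the members' values was not tested.

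Without control replicate 2, the median log2 fold change rose to 0.21 for Mrpl and 0.19 for Mrps genes. Among members not called, Mrpl12 moved from -0.45 to -0.24, Mrpl45 from -0.28 to -0.10, Mrps18a from -0.23 to -0.09, Mrps18b from -0.17 to -0.07 and Mrps18c from 0.45 to 0.83. Then 10 members were called higher, beside 8.71% of all tested genes, namely Mrpl10, Mrpl16, Mrpl22, Mrpl39, Mrpl40, Mrpl41, Mrpl43, Mrpl49, Mrps12 and Mrps25. Mrps28, Mrpl23 and Mrpl52 were then called lower as before. Without control replicate 1 the medians were -0.02 and -0.06, with 2 members called lower and 1 higher, and without control replicate 3 they were -0.04 and -0.02, with 2 lower and 0 higher. Over all tested genes 1707 were called without control replicate 1 and 2168 without control replicate 3. Without any one Taf4asKO library 1 member was called lower, Mrps28, and 0 higher. Calls over all tested genes then numbered 1295, 962 and 960, without Taf4asKO replicate 1, 2 and 3 in turn, beside 2347 with all libraries.

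**Figure D3:**
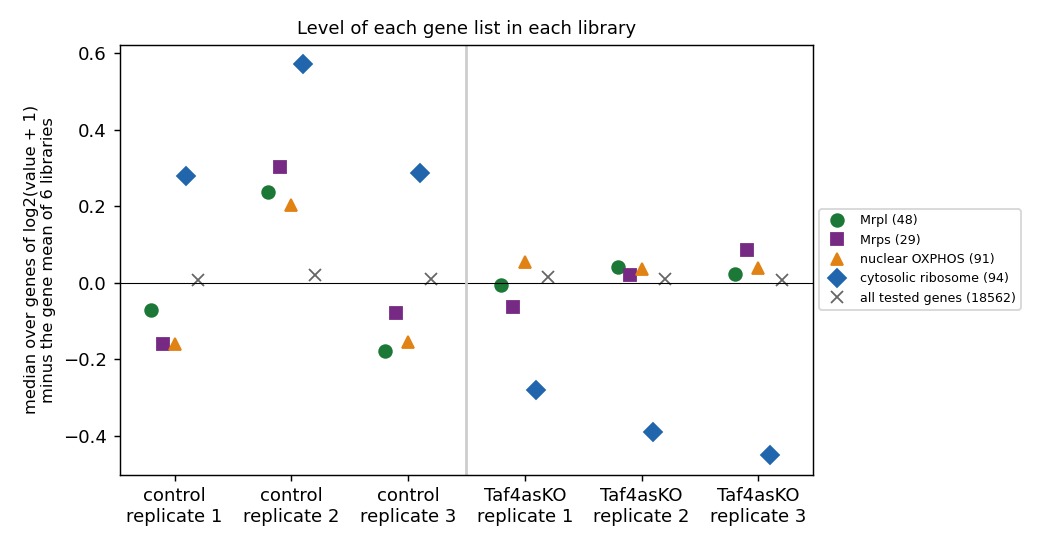
Median over the genes of each list of log2(normalized count + 1) minus the gene's mean over 6 libraries, by library, for Mrpl, Mrps, nuclear encoded respiratory chain, cytosolic ribosomal protein and all tested genes. The mitoribosomal lists reach 0.24 and 0.30 in control replicate 2 and lie between -0.18 and 0.09 in the other 5 libraries, while the cytosolic list is above 0 in every control and below 0 in every Taf4asKO library.

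Cytosolic ribosomal protein genes differed in the same libraries. Of 94 tested genes matching the symbol pattern, 71 were called lower and 1 higher, with a median log2 fold change of -0.74. The gene called higher, Rps6ka3, encodes a kinase and not a ribosomal protein. Without the S6 kinase genes and Rps19bp1, 70 of 83 tested genes were called lower and 0 higher, with a median of -0.77. No test compared the 2 ribosomes.

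Other genes of mitochondrial translation were mostly not called either. None of 5 mitoribosomal protein genes with other symbols passed, and Dap3, a small subunit protein first described in cell death, was at 0.28 ± 0.13 on the log2 scale (adjusted p = 0.198). Of 27 genes for mitoribosome assembly and rRNA modification 0 were called, with a median of 0.03 and, with the replicate block, 2 called lower. With that block 1667 of all 18562 tested genes were called lower. Of 15 translation factor genes 0 were called, with a median of -0.02.

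Mitochondrial aminoacyl-tRNA synthetases, which charge the tRNAs used by the mitoribosome, were called lower in 4 of 17 cases, with a median of -0.21. Sars2, for serine, fell from 136, 137 and 123 to 45, 47 and 51 (-1.45 ± 0.18 on the log2 scale, limma adjusted p = 0.0011). Ears2 fell by 0.88 ± 0.20, Wars2 by 0.78 ± 0.21 and Aars2 by 0.62 ± 0.14. None of the 17 was called higher.

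The RNAs that the mitoribosome contains or reads were called in neither direction. The small subunit rRNA mt-Rnr1 measured 404112, 851259 and 568629 in controls and 543644, 770249 and 693403 in Taf4asKO (0.19 ± 0.30 on the log2 scale, limma adjusted p = 0.723). The large subunit rRNA mt-Rnr2 was at 0.02 ± 0.34. Of the mitochondrially encoded protein genes, 7 were tested, all with positive estimates and a median of 0.39, and 0 were called. Their values summed to 111563, 300596 and 212128 in controls and to 177042, 282127 and 264885 in Taf4asKO, with control replicate 1 the lowest library for all 7. With the replicate block 3 of them, mt-Nd4, mt-Nd6 and mt-Cytb, were called higher, beside 1688 of all 18562 tested genes.

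Of 91 nuclear genes named for the respiratory chain, 2 were called lower and 1 higher, with a median of 0.09. With the replicate block 3 were called lower and 4 higher, beside 1667 lower and 1688 higher of all 18562 tested genes. The 2 lower without it, Cox7a2l and Atp5sl, encode assembly factors, and the 1 higher without it is Cox6a1, a cytochrome c oxidase subunit. Of 11 genes for mitochondrial transcription and DNA maintenance 0 were called. Of 12 mitochondrial chaperones and proteases Yme1l1, an inner membrane protease, rose by 0.41 ± 0.10. Of 9 regulators of mitochondrial biogenesis, the coactivators Ppargc1b and Pprc1 fell by 0.52 ± 0.13 and 0.48 ± 0.12. Ppargc1a, the related coactivator, measured 70, 93 and 112 in controls and 144, 134 and 145 in Taf4asKO (0.64 ± 0.20, adjusted p = 0.0588, and 0.0332 with the replicate block).

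Many mitoribosomal genes start head to head with another gene. A protein-coding gene on the other strand began within 1000 bases of the start of 27 members, with overlaps of up to 500 bases allowed, which made 26 pairs since Mrpl46 and Mrps11 are each other's partner. In 17 pairs the estimates had opposite signs and in 9 the same. Over these 26 pairs the log2 fold changes had a Pearson r of -0.57 and a Spearman rho of -0.56, as a description, since all points come from the same 6 libraries.

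Of the partner genes 5 were called lower and 0 higher, beside 6.71% and 5.93% of all tested genes. They were Fau, Sars2, Helq, Ncapd2 and Pnpla7, and the members opposite them, Mrpl49, Mrps12, Mrps18c, Mrpl51 and Mrpl41, had estimates of 0.68, 0.46, 0.45, 0.22 and 0.51. Fau encodes a cytosolic small subunit protein fused to a ubiquitin-like protein, Helq a DNA helicase and Ncapd2 a condensin subunit. Helq was uneven among controls, at 455, 130 and 375, against 86, 114 and 123 in Taf4asKO.

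Fau starts 137 bases from Mrpl49. It measured 1882, 2187 and 1920 in controls and 1205, 1120 and 1087 in Taf4asKO, which is -0.81 ± 0.10 on the log2 scale (SE, adjusted p = 0.001 by limma). The ratio of Mrpl49 to Fau was 0.0725 ± 0.00867 (SD, n = 3) in controls and 0.204 ± 0.0109 (SD, n = 3) in Taf4asKO. Sars2 starts 182 bases from Mrps12, and the ratio of Mrps12 to Sars2 went from 0.561 ± 0.085 to 2.13 ± 0.225 (SD, n = 3 each). No test was made of these ratios, since both pairs were picked with their values known.

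**Figure D4:**
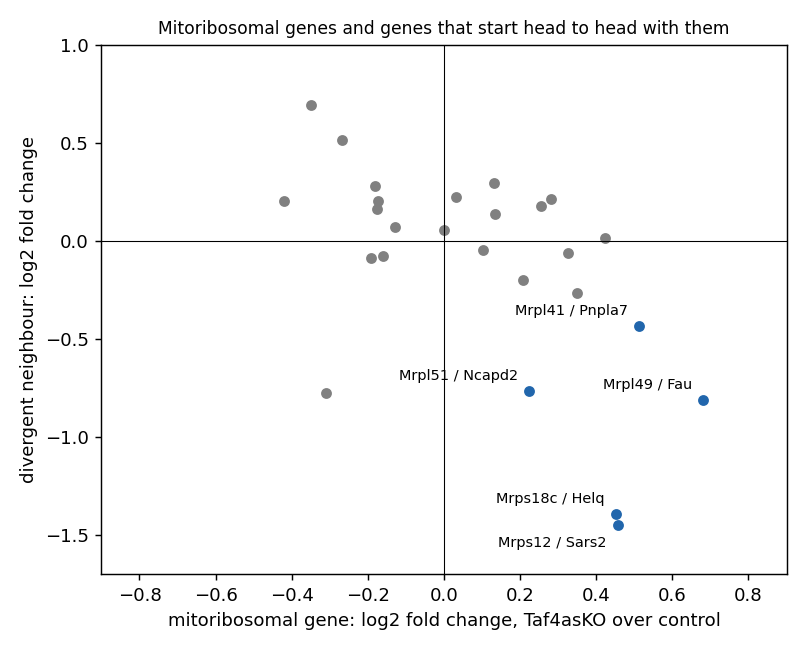
Log2 fold change (Taf4asKO over control) of each mitoribosomal gene on the horizontal axis and of the protein-coding gene that starts head to head with it on the vertical axis, for 26 pairs; blue points are partners called lower. The 5 blue points lie at positive values of the mitoribosomal gene.

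The sequence is shown for the start of 1 of these pairs. The promoter window of Mrpl49, picked with its values known, is almost the same interval as that of Fau read on the other strand. It is shown as RefSeq gives it for 250 bases before and 50 after the start, on GRCm38.p6, which is mm10.
Mrpl49, chr19:6057706-6058005, minus strand: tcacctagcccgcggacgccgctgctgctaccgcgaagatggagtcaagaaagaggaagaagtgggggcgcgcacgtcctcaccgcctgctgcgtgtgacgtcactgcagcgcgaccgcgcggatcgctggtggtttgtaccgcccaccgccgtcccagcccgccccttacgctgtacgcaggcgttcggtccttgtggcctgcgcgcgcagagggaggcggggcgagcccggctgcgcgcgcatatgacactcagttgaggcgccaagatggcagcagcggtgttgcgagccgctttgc

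Motifs were counted on both strands in such windows, available for 68 members and for 10767 tested protein-coding genes. The study asked whether TAF4A acts with NF-Y, a factor that binds CCAAT. This motif was present in 38.2% of member windows and 42.5% of all windows. CCGGAAG, a core bound by ETS factors including GABP, was present in 36.8% and 18.6%. The NRF1 core GCGCATGC was present in 11.8% and 5.67%, the YY1 core AAGATGGCG in 11.8% and 3.30%, and the E-box CACGTG in 7.35% and 11.2%. In 72 windows of genes on the cytosolic ribosomal protein list the shares were 34.7% for CCAAT, 36.1% for the ETS core, 6.94% for the NRF1 core, 5.56% for the YY1 core and 8.33% for the E-box. A match is a description of letters and not a binding site.

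The median log2 fold change was 0.10 for members with CCAAT and 0.09 for members without it. It was 0.08 and 0.09 with and without the ETS core, 0.03 and 0.10 with and without the NRF1 core, -0.14 and 0.10 with and without the YY1 core, and 0.10 and 0.09 with and without the E-box. The members with the NRF1 core numbered 8, as did those with the YY1 core, and no test was made of these differences. The windows of the called members Mrpl23, Mrpl52 and Mrps25 and of Mrpl47 and Mrpl58, the members nearest to no change, are shown with matches to any of the 5 motifs, on either strand, in capitals.
Mrpl52, chr14:54426659-54426958, plus strand: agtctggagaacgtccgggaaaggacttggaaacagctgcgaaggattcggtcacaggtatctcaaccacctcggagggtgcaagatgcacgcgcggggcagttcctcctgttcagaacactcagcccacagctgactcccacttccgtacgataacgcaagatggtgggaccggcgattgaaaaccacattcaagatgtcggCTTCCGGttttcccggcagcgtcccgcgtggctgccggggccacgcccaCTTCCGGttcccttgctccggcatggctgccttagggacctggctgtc
Mrpl58, chr11:115403502-115403801, plus strand: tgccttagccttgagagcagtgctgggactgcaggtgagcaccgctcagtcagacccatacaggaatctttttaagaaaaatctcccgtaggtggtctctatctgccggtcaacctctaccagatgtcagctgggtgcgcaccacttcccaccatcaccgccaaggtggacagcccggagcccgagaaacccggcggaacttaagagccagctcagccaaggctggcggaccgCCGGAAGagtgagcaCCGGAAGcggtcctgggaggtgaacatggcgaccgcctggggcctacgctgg
Mrpl23, chr7:142532782-142533081, plus strand: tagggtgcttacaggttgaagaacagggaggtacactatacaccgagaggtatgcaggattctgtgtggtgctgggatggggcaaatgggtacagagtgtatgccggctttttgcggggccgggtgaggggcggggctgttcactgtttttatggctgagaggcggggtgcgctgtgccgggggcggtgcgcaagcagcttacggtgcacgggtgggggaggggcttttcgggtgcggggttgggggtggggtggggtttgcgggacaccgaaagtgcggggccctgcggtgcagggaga
Mrpl47, chr3:32736706-32737005, minus strand: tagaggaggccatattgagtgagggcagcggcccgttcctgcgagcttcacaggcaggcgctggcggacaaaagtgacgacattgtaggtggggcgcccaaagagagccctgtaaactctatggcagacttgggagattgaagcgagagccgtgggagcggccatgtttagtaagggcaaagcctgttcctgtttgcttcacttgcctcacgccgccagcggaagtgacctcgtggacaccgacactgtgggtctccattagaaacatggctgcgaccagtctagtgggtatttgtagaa
Mrps25, chr6:92183974-92184273, minus strand: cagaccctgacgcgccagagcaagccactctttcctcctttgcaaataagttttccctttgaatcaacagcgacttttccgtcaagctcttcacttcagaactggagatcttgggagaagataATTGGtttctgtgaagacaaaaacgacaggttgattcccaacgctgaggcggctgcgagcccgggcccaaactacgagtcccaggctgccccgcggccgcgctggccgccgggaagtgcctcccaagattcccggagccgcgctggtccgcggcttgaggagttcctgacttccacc

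The windows of Mrpl52, called lower, and of Mrpl58, with a log2 fold change of 0.01, hold CCGGAAG or its reverse complement at 2 places each. The windows of Mrpl23, called lower, and of Mrpl47, at 0.00, hold none of the 5 motifs. The window of Mrps25, called higher, holds CCAAT once, on the other strand.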

How the data were processed

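RNA of sorted MuSCs was sequenced in 6 libraries, 3 labelled WT and 3 Taf4asKO, from 10 ng of RNA with a stranded kit. Per the study's methods and the submitters' processing notes, reads were trimmed with Trimmomatic 0.39, aligned to mm10 with STAR 2.6.0c and assigned to genes of Ensembl release 101 with featureCounts 1.6.0, leaving out reads that mapped to several places or overlapped several genes. The authors deposited DESeq2 1.14.1 normalized counts rounded to whole numbers, treated here as a score and not as raw counts, so depth before normalization is unknown. A count model was therefore not used.

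Values were tested as log2(value + 1) with limma 3.58.1 in R 4.3.3, with an intensity trend, two-sided, over genes whose mean reached 5, and fold changes are on that scale. The added 1 makes changes of genes with low values appear smaller. A call needed a fold of at least 1.3 and p under 0.05 after Benjamini-Hochberg adjustment. The fit was tested on simulated data. Replicates of a group differed by more than counting noise. Same-numbered libraries deviated together from their group means, with correlations of 0.235, 0.126 and 0.15. No label states that the numbers pair the libraries, and a replicate block was used as an alternative only. Other alternatives were the scaling, the pseudocount, the filter, the limits, limma treat, voom weights, a GC and exon length adjustment, and leaving out each library. Members and gene lists were chosen with earlier results of these data known. Named members were those with a known role, those called, the 3 with the highest estimate and the 3 with the lowest mean. Promoter windows were those of the 4 called members with the lowest estimates (Mrps28 had no entry) and of the 2 uncalled members nearest to 0, with Mrpl49 added. Value columns without a sample numbered 0.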

Additional observations from a re-analysis of the deposited data

How the results depend on the processing

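Counts of called members (3 lower, 2 higher) depended on the limits and on single libraries. With a replicate block, the same 5 members were called, 3 lower and 2 higher, and this block changed no other call among the named members. With it 3355 of all tested genes passed, beside 2347 in the main fit. Upper-quartile scaling left 3 lower and 1 higher, and total-count scaling, which also lost Mrpl23, 2 lower and 1 higher. Of all genes, 2359 and 2227 passed with these scalings. At an adjusted p under 0.01 there were 1 lower and 0 higher, with 876 of all genes passing, while limma treat left 1 lower, 0 higher and 435 passing. The GC and exon length adjustment left 1 lower and 1 higher, and with the replicate block 4 lower and 3 higher, adding Mrpl30, Mrps35, Mrpl10 and Mrpl41 and losing Mrpl52 and Mrps25. Over all genes 2138 passed with the adjustment alone and 3294 with the block added. Leaving out 1 library gave 1 to 3 lower and 0 to 10 higher members, medians of -0.04 to 0.21 for Mrpl and -0.06 to 0.19 for Mrps genes, and 960 to 3121 of all genes passing. Of 380 values of the 20 named members, 333 kept their direction and side of the limits, 33 lost and 5 gained a call, and 9 changed sign, none of a called member: Mrpl58 went to -0.028 with upper-quartile scaling and -0.0083 with total-count scaling without the 100 most abundant genes. With 1 library left out, the range was -0.19 to 0.20 for Mrpl58, -0.096 to 0.24 for Mrpl11, -0.088 to 0.29 for Mrpl44, -0.046 to 0.26 for Mrps22 and -0.22 to 0.041 for Mrps30. The cause was not tested. With 3 libraries a group, the intervals of the low members Mrps18c and Mrpl14 reach beyond a 2-fold change.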
